A study of Homo sapiens with 6 samples.

Results

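The 10 tubulin genes examined here encode the protein that paclitaxel binds and the close relatives of that protein. They are the α-tubulin genes TUBA1A, TUBA1B and TUBA1C, the β-tubulin genes TUBB, TUBB2A, TUBB2B, TUBB3, TUBB4B and TUBB6, and the γ-tubulin gene TUBG1. They were chosen by symbol, and all 10 were found among the 59008 symbols of the expression table. RNA sequencing compared untreated parental cells, polyploid giant cancer cells (PGCCs) and their daughter cells. Each state was sequenced in the established ovarian cancer cell lines Hey and SKOV3, both of human origin. Parental cells received no paclitaxel. PGCCs were the enlarged cells that remained after 500 nM paclitaxel for 16 h and 3 days of recovery without the drug, and daughter cells had the same treatment followed by 30 days of recovery. For the SKOV3 PGCC library 1 label gives 3 days and another gives day 7, and the study's methods give day 3. Each daughter library is labelled as 1 clone of cells, and Hey and SKOV3 were grown in different media.

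There was 1 library for each of the 6 conditions. The values therefore carry no replicate error, and no p-value was computed for a library against a library. A gene was called higher or lower when the difference of log2(TPM + 1) between libraries of the same line was at least 1, that is 2-fold. TPM (transcripts per 1000000) corrects for transcript length, so levels of different genes can be set side by side. The 10 genes held 0.335% to 0.805% of the TPM of a library. Mitochondrial transcripts held 2.64% to 14.8% of the TPM, and 19920 to 25370 genes had a value above 0. In RNA from a bulk culture, a lower level in fewer cells and a lower level in every cell cannot be told apart.

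The labelled cell type was checked against its markers. KRT7, KRT8 and KRT18, keratins of simple epithelia, had 220.4 to 1052 TPM, while KRT19 had 80.2 to 711 TPM in SKOV3 and at most 3.60 TPM in Hey. PAX8, a transcription factor of ovarian carcinoma, had 54.7 to 136.0 TPM. Hey cells also had little of other epithelial genes: EPCAM reached 1.43 TPM, CDH1 0.0283 TPM and MUC16 0.0322 TPM. Of the 5 neuron markers SNAP25, STMN2 and DCX stayed under 1 TPM in all 6 libraries, SYT1 had 2.66 to 15.8 TPM, and RBFOX3 had 7.70 to 10.0 TPM in Hey and at most 0.135 TPM in SKOV3. Of the 6 leukocyte markers only CD68 did not, and of the 8 fibroblast markers COL1A2, COL3A1, PDGFRA and THY1 stayed under 1 TPM. The fibroblast sum was 0.274 to 3.66 TPM in Hey and 12.9, 13.2 and 28.3 TPM in SKOV3 parental cells, PGCCs and daughter cells, with COL1A1 at 16.3 TPM, LUM at 5.56 TPM and PDGFRB at 5.35 TPM in the last, LUM at most 9.31 TPM and DCN at most 1.33 TPM. The 4 endothelial markers were under 1 TPM except CDH5, and their sum was 33.7 to 49.1 TPM in Hey and 0.343 to 2.92 TPM in SKOV3.

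α- and β-tubulin join as a heterodimer, and the dimers stack end to end into the wall of the microtubule. γ-tubulin does not enter the wall but sits in a ring complex that starts new microtubules. Paclitaxel binds β-tubulin inside the wall and stabilizes the polymer, so that the mitotic spindle cannot work and cells can leave mitosis without dividing. Cells carry several α and β genes, called isotypes, whose proteins are alike in the body and differ mostly in their tails. Cells also hold down tubulin mRNA when free dimer accumulates: TTC5 recognises the first residues of a tubulin chain as it leaves the ribosome, and the CCR4-NOT deadenylase then removes the mRNA.

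The start of the coding sequence is shown for all 10 members because in the α and β genes it encodes the residues that this feedback reads. The sequences are bases 1 to 36 of the coding sequence of the canonical GENCODE release 44 transcript, 5′ to 3′, with the first 4 codons in capitals.
TUBA1A: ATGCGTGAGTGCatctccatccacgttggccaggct
TUBA1B: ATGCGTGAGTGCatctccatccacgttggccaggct
TUBA1C: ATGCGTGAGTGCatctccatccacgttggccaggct
TUBB: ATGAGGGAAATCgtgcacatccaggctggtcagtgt
TUBB2A: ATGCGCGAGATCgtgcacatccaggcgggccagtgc
TUBB2B: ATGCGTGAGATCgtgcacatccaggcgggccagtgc
TUBB3: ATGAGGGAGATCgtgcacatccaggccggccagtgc
TUBB4B: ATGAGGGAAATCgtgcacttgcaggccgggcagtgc
TUBB6: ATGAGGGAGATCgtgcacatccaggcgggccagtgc
TUBG1: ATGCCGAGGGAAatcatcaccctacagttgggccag
The 36 bases are identical in the 3 α genes. Among the β genes the first 12 bases are shared by TUBB and TUBB4B and by TUBB3 and TUBB6, while TUBB2A and TUBB2B each have their own. These differences are silent, since the first 4 codons of every β gene here encode Met-Arg-Glu-Ile. The start of TUBG1 is unlike all the others and encodes Met-Pro-Arg-Glu.

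The likeness runs through the whole coding sequence and bears on how reads can be assigned to a gene. Coding sequences of TUBA1A and TUBA1B are 97.2% identical, those of TUBA1B and TUBA1C 96.8%, and those of TUBB2A and TUBB2B 98.1%. The other β pairs range from 80.9% to 87.7%. As a measure of shared sequence, the stretches of 31 bases of each transcript that also occur in a transcript of another gene were counted. The share is 59.3% for TUBA1A, 72.2% for TUBA1B, 37.7% for TUBA1C, 69% for TUBB2A and 56.3% for TUBB2B, and only 6.76% for TUBB6. TUBB has 33.5%, TUBB4B 20.7% and TUBG1 39.7%, of which 36.6% is shared with the second γ-tubulin gene TUBG2. For TUBB3 it is 94%, nearly all of it with the read-through gene model that joins MC1R and TUBB3. Some levels are uncertain to the extent that the quantification could divide reads between such copies. They are those within the α trio, within the pair TUBB2A and TUBB2B, of TUBG1 beside TUBG2, and of TUBB3. Sums over the α trio and over TUBB2A and TUBB2B are therefore given as well. No sum of TUBB3 with the read-through model, or of TUBG1 with TUBG2, was made, so these uncertainties of TUBB3 and TUBG1 stay unmeasured. MC1R itself had 0.838 to 3.65 TPM, which does not measure the reads given to the read-through model. The processed pseudogene TUBBP1, the closest match of TUBB, reached 0.129 TPM.

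In GRCh38 the α genes lie together on chromosome 12, TUBA1B at chr12:49127782-49131397 and TUBA1A at chr12:49184686-49189080 on the minus strand and TUBA1C at chr12:49188736-49274600 on the plus strand. TUBA1A and TUBA1C overlap at their ends. TUBB2A (chr6:3153497-3157544) and TUBB2B (chr6:3223324-3231730) are neighbours on the minus strand of chromosome 6, which also carries TUBB (chr6:30717435-30725538). TUBB3 is at chr16:89921392-89938761, TUBB4B at chr9:137241287-137243707, TUBB6 at chr18:12307669-12344320 and TUBG1 at chr17:42609641-42615238, all on the plus strand. These are the spans of the gene models with their exons, introns and UTRs.

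Levels of the members ranged from 0.380 TPM to 3305 TPM. TUBA1B, the α gene that most dividing cells use, had the highest TPM of the 10 in every library. TUBB2B, a β isotype of developing neurons, had the lowest, although in SKOV3 daughter cells its 21.4 TPM was close to the 22.1 TPM of TUBB2A.

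**Figure D1:**
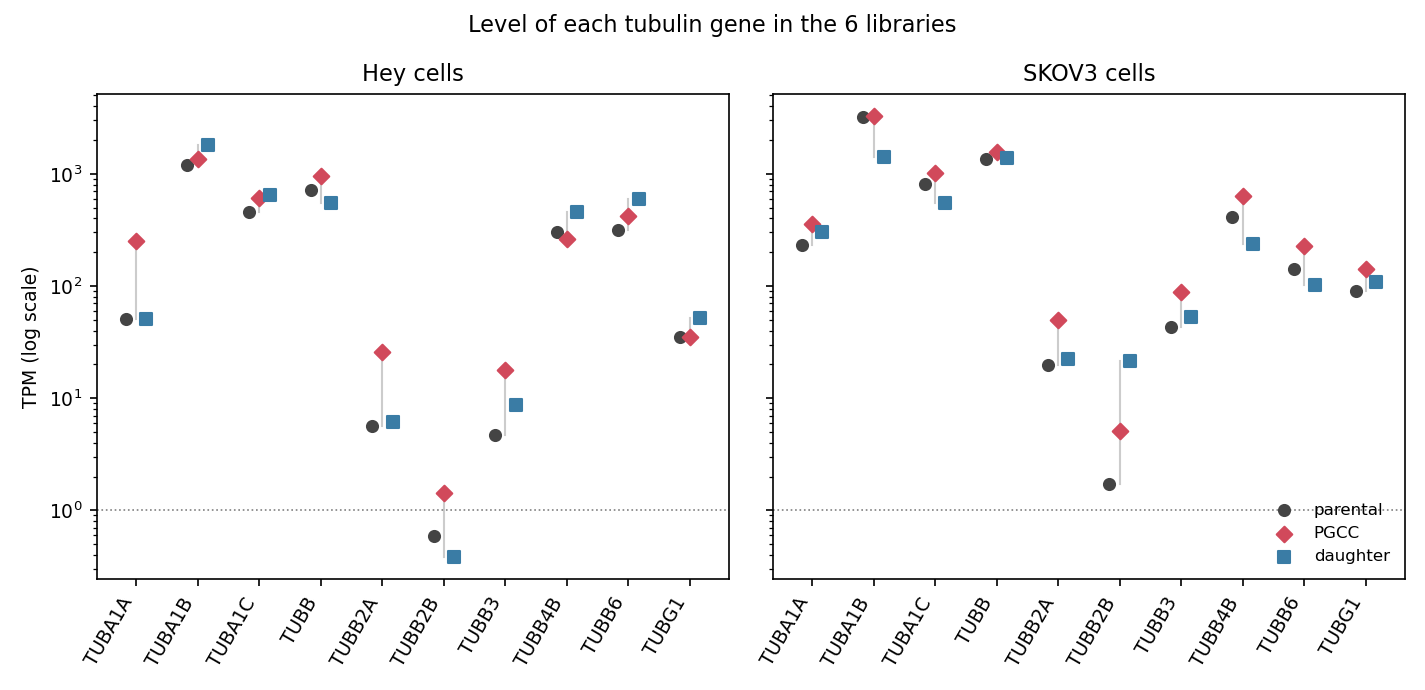
TPM of each of the 10 tubulin genes on a log axis, in Hey (left) and SKOV3 (right). Circles are parental cells, diamonds PGCCs and squares daughter cells, 1 library each, and the dotted line marks 1 TPM. In Hey the PGCC points of TUBA1A (250 TPM), TUBB2A (25.9 TPM) and TUBB3 (18.0 TPM) stand above the other 2 states, and in SKOV3 daughter cells TUBB2B (21.4 TPM) does.

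Among the α genes TUBA1A moved most between Hey parental cells and PGCCs, and TUBA1B moved most between SKOV3 parental and daughter cells. TUBA1A, an α isotype best known from developing neurons, had 50.3 TPM in Hey parental cells, 250 TPM in Hey PGCCs and 51.2 TPM in Hey daughter cells. In SKOV3 it had 231 TPM, 355 TPM and 303 TPM in the same order. The Hey PGCC library was thus high against both other Hey libraries, while the 3 SKOV3 libraries lay close together and all above Hey parental and daughter cells. In Hey TUBA1A was 4.96-fold higher in PGCCs than before treatment, a difference of 2.29 on the log2(TPM + 1) scale that lies at percentile 98.6 of the genes tested. In SKOV3 the difference was 0.62, at percentile 78.4.

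TUBA1B had 1199, 1347 and 1824 TPM in Hey parental cells, PGCCs and daughter cells. In SKOV3 it had 3207, 3305 and 1420 TPM. PGCCs stayed near parental cells in both lines, with differences of 0.17 and 0.043, and the daughter cells went opposite ways, with a difference from parental cells of 0.60 in Hey and -1.18 in SKOV3.

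TUBA1C, the third broadly expressed α gene, had 457, 605 and 643 TPM in Hey and 818, 1011 and 547 TPM in SKOV3. None of its 6 differences reached 2-fold as deposited. Summed over the 3 α genes, Hey had 1706, 2202 and 2518 TPM, and SKOV3 had 4255, 4672 and 2269 TPM. The log2 difference of the α total between daughter and parental cells was therefore 0.56 in Hey and -0.91 in SKOV3.

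The β genes, whose products bind paclitaxel, fell into a high and a low group. TUBB, the class I isotype found in nearly all cells, had 711, 951 and 555 TPM in Hey parental cells, PGCCs and daughter cells. It had 1352, 1551 and 1382 TPM in SKOV3. No difference of TUBB between states of a line reached 2-fold, and the SKOV3 libraries were above the Hey libraries.

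TUBB4B, the broadly expressed class IVb isotype, had 303, 263 and 456 TPM in Hey. In SKOV3 it had 409, 631 and 239 TPM. The order of the states was reversed between the lines: PGCCs were the lowest of the 3 states in Hey and the highest in SKOV3. PGCCs minus parental cells gave -0.21 in Hey and 0.62 in SKOV3, neither past 2-fold.

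TUBB6, the class V isotype, was the one β gene with a higher level in Hey than in SKOV3 in all 3 states, at 314, 420 and 592 TPM against 143, 229 and 103 TPM in SKOV3. PGCCs were above parental cells by 0.42 in Hey and 0.67 in SKOV3. Daughter cells were the highest Hey library and the lowest SKOV3 library.

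The low β group held the isotypes known from neurons, TUBB2A, TUBB2B and TUBB3. TUBB2A had 5.68, 25.9 and 6.18 TPM in Hey parental cells, PGCCs and daughter cells, and 19.9, 49.5 and 22.1 TPM in SKOV3. In both lines the PGCC library was the high one and daughter cells were back near parental cells. TUBB2A was 4.56-fold higher in Hey PGCCs and 2.49-fold higher in SKOV3 PGCCs than in parental cells.

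TUBB3, the class III isotype often studied for taxane resistance, had 4.74, 18.0 and 8.75 TPM in Hey. It had 42.8, 87.8 and 53.1 TPM in SKOV3. PGCCs were again the highest library of each line, and every SKOV3 library was above every Hey library. PGCCs were above parental cells 3.80-fold in the Hey line and 2.05-fold in SKOV3.

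TUBB2B had 0.596, 1.44 and 0.380 TPM in Hey, close to the pseudocount of 1 TPM, and 1.73, 5.07 and 21.4 TPM in SKOV3. Hey PGCCs had 2.42 times the TPM of Hey parental cells, which is a difference of only 0.61 with a pseudocount of 1 and of 1.15 with a pseudocount of 0.1. The SKOV3 daughter library stood above the other 5. It was 12.4-fold above SKOV3 parental cells, a log2 difference of 3.04 at percentile 98.4 of the genes tested.

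Because reads could be divided between TUBB2A and TUBB2B, their sum was also followed. It was 6.27, 27.3 and 6.56 TPM in Hey and 21.6, 54.6 and 43.5 TPM in SKOV3. PGCCs were above parental cells by 1.96 and 1.30 on the log2 scale, past 2-fold in both lines. The sum in SKOV3 daughter cells was above parental cells by 0.98, just under 2-fold.

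TUBG1, which starts microtubules rather than forming them, had 35.2, 35.4 and 51.7 TPM in Hey and 90.9, 142 and 108 TPM in SKOV3. Hey PGCCs and parental cells were nearly equal, with a difference of 0.0082, and the SKOV3 difference was 0.64. TUBG1 was past 2-fold in none of the 6 comparisons of states.

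Set against all genes, the first question was which tubulin genes differed between PGCCs and parental cells. In Hey 3 of the 10 were at least 2-fold higher (TUBA1A, TUBB2A and TUBB3) where 7.67% of the 14988 genes tested (mean TPM of 1 or more) were, and 0 were lower against 5.22%. In SKOV3 3 were higher (TUBB2A, TUBB2B and TUBB3) against 9.94%, and 0 were lower against 4.96%. TUBB2A and TUBB3 were higher in both lines, where 0.834% of all genes were, and 0 members were lower in both against 0.834%. The difference had the same sign in both lines for 9 members, TUBB4B being the exception. The median difference of the 10 was 0.42 in Hey and 0.63 in SKOV3, beside 0 and 0.017 over all genes tested.

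The SKOV3 side of this comparison moved with base composition. Across the 13468 genes with a known transcript, the difference between PGCCs and parental cells had a Spearman correlation with GC content of 0.72 in SKOV3 and of -0.044 in Hey, as a description across genes. Genes with a GC content of 60 to 65% had a median SKOV3 difference of 0.91, and TUBB3, with 62.2%, had 1.02. Genes with 55 to 60% had a median of 0.59 and an upper quartile of 0.87, and TUBB2A, with 59.3%, had 1.27. In Hey the medians of these 2 bins were -0.054 and -0.037, far below TUBB3 and TUBB2A. Epithelial markers moved in SKOV3 as well: 5 of 8 were past 2-fold in PGCCs against 0 of 8 in Hey, with a sum of 1477 TPM in SKOV3 parental cells and 3298 TPM in SKOV3 PGCCs, and their part in the tubulin values was not tested.

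With the trend over GC content and transcript length subtracted, the 3 Hey calls stayed past 2-fold higher (against 6.21% of all genes), at 2.24 for TUBA1A, 2.04 for TUBB2A and 1.79 for TUBB3. None of the 10 was past 2-fold higher in SKOV3, against 2.23% of all genes, and there TUBB2A was at 0.60, TUBB2B at 0.70 and TUBB3 at 0.17. TUBB4B, at 0.62 before, was at -0.051. The SKOV3 median of the 10 was then 0.16 and the Hey median 0.44, and 0 members were past 2-fold in both lines.

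**Figure D2:**
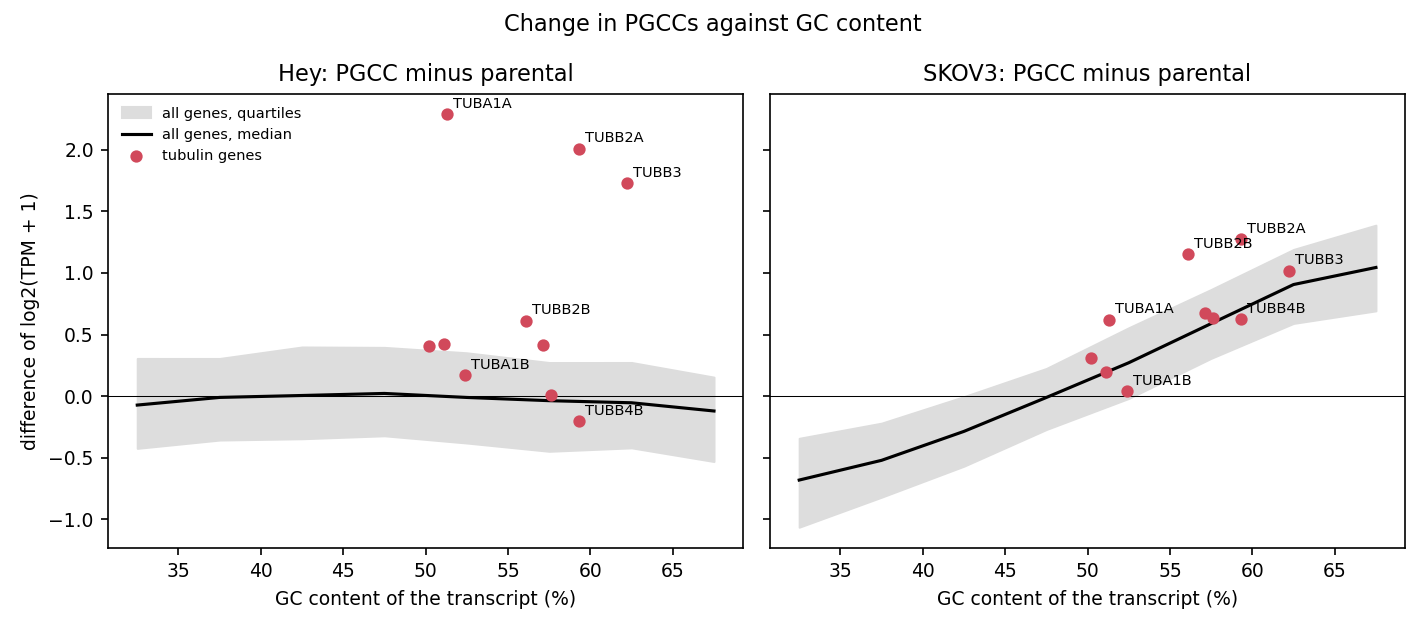
Difference of log2(TPM + 1) between PGCCs and parental cells against the GC content of the transcript in percent, in Hey (left) and SKOV3 (right), with the 10 tubulin genes as points, 6 of them named. The line is the median and the band the quartiles of all genes in bins of GC content. In SKOV3 the median climbs to 0.91 at 60 to 65% and TUBB3 sits near it at 1.02, and in Hey TUBA1A, TUBB2A and TUBB3 lie far above a flat median.

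Daughter cells were next compared with parental cells, which asks what was left after recovery. In Hey 0 of the 10 were at least 2-fold higher, against 6.31% of all genes, and 0 were lower, against 3.73%. In SKOV3 1 was higher (TUBB2B), against 15.1%, and 1 was lower (TUBA1B), against 6.34%. None was higher in both lines, against 1.19%, and none lower in both, against 0.387%. The members' median difference was 0.52 in Hey and 0.089 in SKOV3, beside 0.050 and 0.15 over all genes.

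The genes that were high in Hey PGCCs were back near the parental level in Hey daughter cells, with differences of 0.03 for TUBA1A and 0.11 for TUBB2A, while TUBB3 kept 0.77. The highest daughter value in Hey was 0.91, for TUBB6. In SKOV3 TUBB4B differed by -0.77, and by -1.004 with the trend subtracted, where 2 members (TUBA1B and TUBB4B) were past 2-fold lower (against 7.54% of all genes) and TUBB2B stayed higher at 2.85 (against 11.1%). Only 4 members had the same sign in both lines.

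PGCCs were also compared with daughter cells. These values share libraries with the comparisons above and are not further evidence for them. In Hey 2 members were at least 2-fold higher in PGCCs (TUBA1A by 2.26 and TUBB2A by 1.90), against 8.13% of all genes, and 0 were lower, against 9.95%. TUBB3 was just under the threshold at 0.96 and past it at 1.12 with the trend subtracted.

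In SKOV3 4 members were at least 2-fold higher in PGCCs (TUBA1B by 1.22, TUBB2A by 1.13, TUBB4B by 1.40 and TUBB6 by 1.15), against 9.25%, and 1 was lower (TUBB2B, at -1.88), against 14.6%. TUBB2A was higher in both lines, where 1.07% of all genes were, and 0 members were lower in both, against 1.21%. The SKOV3 difference had a Spearman correlation of 0.46 with GC content, and with the trend subtracted 1 member, TUBA1B, was past 2-fold higher (against 7.25% of all genes) and TUBB2B was still lower (against 10.6%). TUBB2A was then at 0.69 in SKOV3 and 2.07 in Hey.

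**Figure D3:**
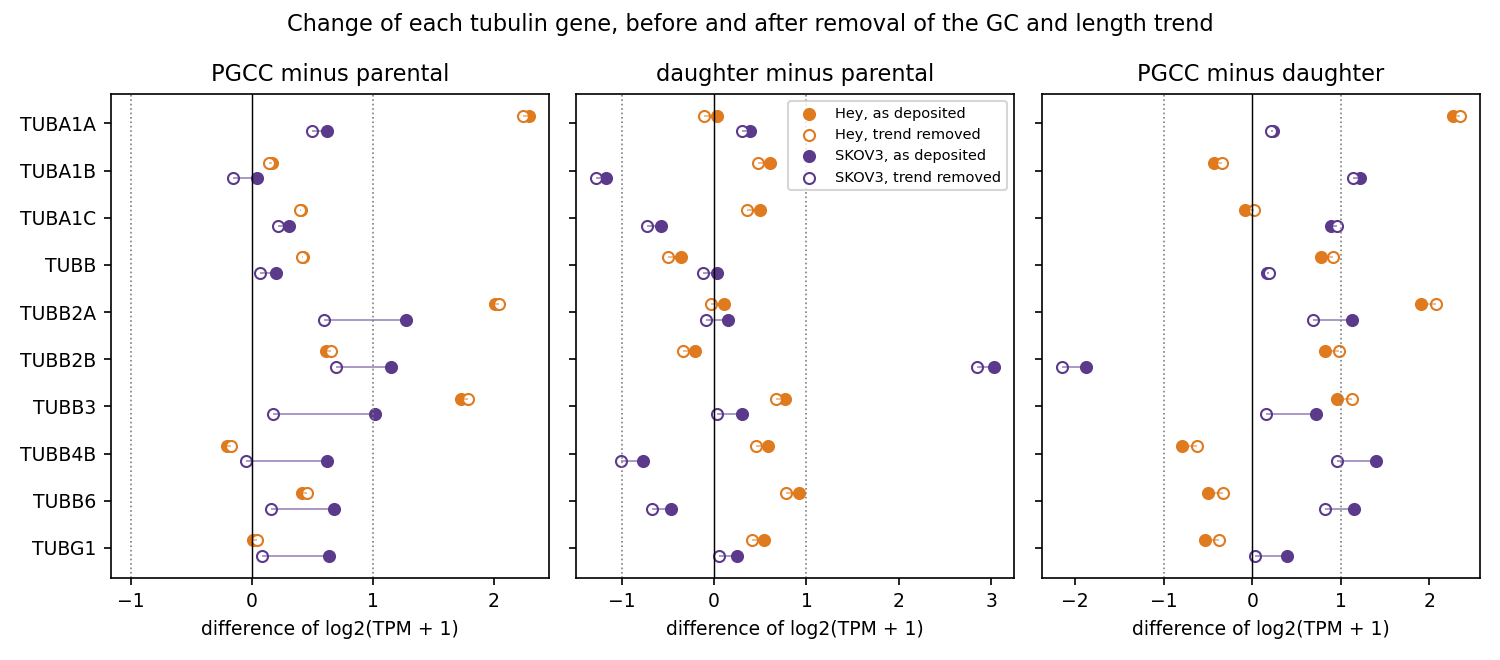
Difference of log2(TPM + 1) for each tubulin gene in the 3 comparisons of states, for Hey (orange) and SKOV3 (purple). Filled points are the deposited values and open points the values after the trend over GC content and length was subtracted, and dotted lines mark 2-fold. In the first panel the Hey points of TUBA1A, TUBB2A and TUBB3 stay past 2-fold, and the SKOV3 points of TUBB2A and TUBB3 move to 0.60 and 0.17.

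A joint test over both lines used limma with state and cell line as terms and 2 residual degrees of freedom. The spread of a gene is its disagreement between the lines, moderated by the spread of all other genes. In PGCCs against parental cells 0 of the 10 members had an adjusted p under 0.05, where 0.02% of all genes (3 genes) did. In daughter against parental cells 0 members did, against 0.0133% (2 genes), and in PGCCs against daughter cells 0 members did, against 0%. Before adjustment 3, 0 and 2 members had a limma p under 0.05 in these contrasts, where 2.73%, 3.39% and 5.06% of all genes did, and with state as the only term 0 members did in each. TUBB2A had the lowest, with a mean difference between PGCCs and parental cells of 1.64 (SE 0.409), a limma p of 0.00462 and an adjusted p of 1. TUBB3 had 1.37 (SE 0.391) with a limma p of 0.00909, and TUBA1A had 1.46 (SE 0.526) with a limma p of 0.0265. Both had an adjusted p of 1 by limma. The design resolved no tubulin gene after adjustment.

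The isotype make-up of the tubulin mRNA differed between lines and states. TUBB gave the largest share of the summed TPM of the 6 β genes in 5 of the 6 libraries. Its share in Hey was 53.1%, 56.6% and 34.3% in the same order of states, and in the last of these TUBB6 passed it with 36.6%. In SKOV3 the TUBB share was 68.7%, 60.7% and 75.9%.

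TUBB6 gave 23.5%, 25.0% and 36.6% of the β total in Hey and 7.25%, 8.95% and 5.64% in SKOV3, so the Hey shares were all above the SKOV3 shares. TUBB4B gave 22.7%, 15.7% and 28.2% in Hey and 20.8%, 24.7% and 13.1% in SKOV3. The neuronal isotypes stayed minor in every library. TUBB3 went from 0.354% to 1.07% between Hey parental cells and PGCCs, and from 2.18% to 3.44% in SKOV3. TUBB2A went from 0.424% to 1.54% in Hey and from 1.01% to 1.94% in SKOV3. So the genes with the highest fold among the β isotypes held a few percent of the β-tubulin mRNA. The shares, totals and ratios here use TPM as deposited, with no GC trend subtracted. The SKOV3 difference between PGCCs and parental cells had a Spearman correlation of 0.72 with GC content. With the GC and length trend subtracted, that difference was 0.064 for TUBB, -0.051 for TUBB4B and 0.16 for TUBB6. It was 0.17 for TUBB3, 0.60 for TUBB2A and 0.70 for TUBB2B.

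Among the α genes TUBA1B gave 70.3%, 61.2% and 72.4% in Hey and 75.4%, 70.7% and 62.6% in SKOV3. TUBA1A gave 2.95%, 11.3% and 2.03% in Hey and 5.42%, 7.61% and 13.3% in SKOV3. In SKOV3 daughter cells the TUBA1A share was above that of SKOV3 PGCCs although its TPM was below, since the α total there was the lower one. Under quantile normalization the TUBA1A share was 13.2% in Hey PGCCs and 10.2% in SKOV3 daughter cells, so the order of these 2 libraries turned. The β total was 1339, 1679 and 1619 TPM in Hey and 1969, 2553 and 1820 TPM in SKOV3. The ratio of α to β total was 1.27, 1.31 and 1.56 in Hey and 2.16, 1.83 and 1.25 in SKOV3, so daughter cells had the highest ratio of the 3 states in Hey and the lowest in SKOV3.

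**Figure D4:**
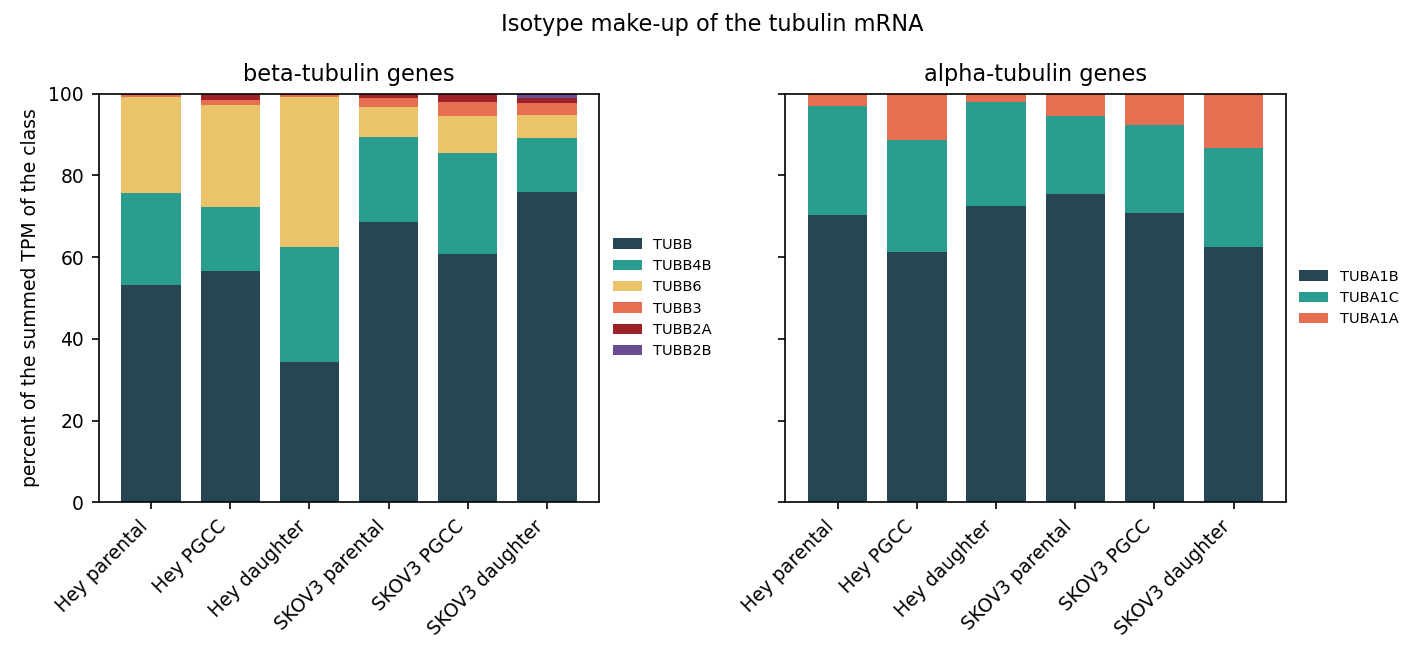
Share of each gene in the summed TPM of the 6 β-tubulin genes (left) and of the 3 α-tubulin genes (right), in percent, 1 stacked bar for each library. TUBB6 takes 23.5 to 36.6% of the β total in Hey and 5.64 to 8.95% in SKOV3, and TUBA1A takes 11.3% of the α total in Hey PGCCs against 2.95% and 2.03% in the other Hey libraries.

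The lines themselves differed in the untreated state. By the difference of log2(TPM + 1), 5 members were at least 2-fold higher in SKOV3 than in Hey parental cells, against 24.2% of all genes. They were TUBA1A, TUBA1B, TUBB2A, TUBB3 and TUBG1. On the same scale 1 member (TUBB6) was at least 2-fold lower, against 11.5%. TUBB2B, at 0.596 and 1.73 TPM, had a difference of 0.77 and was not called, although its TPM ratio was 2.90. The ratios that follow are of TPM. The largest ratio was that of TUBB3, 9.04-fold, followed by TUBA1A with 4.59-fold and TUBB2A with 3.51-fold. These 3 were also the genes called higher in Hey PGCCs, and both comparisons use the Hey parental library. In PGCCs the ratio of SKOV3 to Hey was 4.88 for TUBB3, 1.42 for TUBA1A and 1.91 for TUBB2A, below the ratios before treatment. A rise in Hey PGCCs lowers this ratio unless SKOV3 rises as much. The ratio rose for TUBG1 (2.59 to 4.01), TUBB4B (1.35 to 2.40) and TUBB2B (2.90 to 3.52). It fell for TUBA1B, TUBA1C and TUBB, and that of TUBB6, the gene higher in Hey, went from 0.455 to 0.545. These ratios use TPM as deposited. With the GC and length trend subtracted, SKOV3 PGCCs differed from parental cells by 0.085 for TUBG1, -0.051 for TUBB4B and 0.70 for TUBB2B. The deposited differences were 0.64, 0.62 and 1.15. TUBB6 was 2.20-fold higher in Hey parental cells and 5.77-fold higher in Hey daughter cells.

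The order of β levels was TUBB, TUBB6, TUBB4B, TUBB2A, TUBB3 and TUBB2B in Hey parental cells and TUBB, TUBB4B, TUBB6, TUBB3, TUBB2A and TUBB2B in SKOV3 parental cells. In Hey TUBB6 and TUBB4B (314 and 303 TPM) and TUBB2A and TUBB3 (5.68 and 4.74 TPM) were near each other. With 1 library there is no spread by which such neighbours could be told apart.

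Promoters are shown for the 3 genes called higher in Hey PGCCs, and for TUBB4B, a β gene of the same transcript GC content as TUBB2A that was not. Each is the RefSeq window from 250 bases before to 50 after the start, on the gene's own strand and 5′ to 3′. All 10 members had such a window. Capitals mark the motifs searched on both strands: CCAAT (a binding site of NF-Y), TTTGAA or TTCGAA (the CHR element of cell cycle genes), TATAAA and TGACGTCA (the cAMP response element). A match on the other strand reads as its reverse complement, and no matches overlap here.
TUBA1A promoter, GRCh38.p14, chr12:49189031-49189330, minus strand: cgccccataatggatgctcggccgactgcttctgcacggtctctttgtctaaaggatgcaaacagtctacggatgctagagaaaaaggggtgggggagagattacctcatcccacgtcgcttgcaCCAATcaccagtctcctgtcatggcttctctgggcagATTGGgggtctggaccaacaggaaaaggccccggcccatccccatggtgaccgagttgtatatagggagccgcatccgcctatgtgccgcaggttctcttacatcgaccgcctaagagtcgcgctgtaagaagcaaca
TUBB2A promoter, GRCh38.p14, chr6:3157495-3157794, minus strand: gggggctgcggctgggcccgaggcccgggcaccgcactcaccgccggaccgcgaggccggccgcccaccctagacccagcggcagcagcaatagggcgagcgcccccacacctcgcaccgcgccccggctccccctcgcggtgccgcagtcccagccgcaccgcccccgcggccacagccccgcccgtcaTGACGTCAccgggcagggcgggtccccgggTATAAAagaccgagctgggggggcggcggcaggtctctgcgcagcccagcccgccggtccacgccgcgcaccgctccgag
TUBB3 promoter, GRCh38.p14, chr16:89923092-89923391, plus strand: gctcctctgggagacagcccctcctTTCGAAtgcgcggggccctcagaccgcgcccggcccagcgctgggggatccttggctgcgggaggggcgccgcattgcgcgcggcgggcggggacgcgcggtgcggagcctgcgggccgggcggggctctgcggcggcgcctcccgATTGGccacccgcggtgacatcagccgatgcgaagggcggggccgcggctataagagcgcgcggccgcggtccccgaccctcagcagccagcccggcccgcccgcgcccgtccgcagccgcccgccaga
TUBB4B promoter, GRCh38.p14, chr9:137241037-137241336, plus strand: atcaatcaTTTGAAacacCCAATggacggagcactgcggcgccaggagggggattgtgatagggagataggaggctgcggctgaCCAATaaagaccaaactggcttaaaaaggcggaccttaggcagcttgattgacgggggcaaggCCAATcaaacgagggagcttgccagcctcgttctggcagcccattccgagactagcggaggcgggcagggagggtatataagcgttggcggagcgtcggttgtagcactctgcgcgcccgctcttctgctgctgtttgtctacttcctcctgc
CCAAT occurs in the windows of 8 members, all but TUBA1B and TUBB2A, and in 34.6% of the 35116 promoter windows. The CHR letters occur in TUBA1C, TUBB3 and TUBB4B and in 16.4% of windows. TATAAA (11.5% of windows) and TGACGTCA (1.85% of windows) occur in TUBB2A alone among the 10. The 3 genes called higher in Hey PGCCs thus hold no motif of this set in common, and TUBB4B holds 3 CCAAT matches and 1 CHR match. These are matches of letters only.

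Other tubulin genes were followed as well. Of 13 further genes 6 were expressed enough to be tested. TUBA4A, an α gene, had 7.11, 18.0 and 30.0 TPM in Hey and 138, 242 and 14.8 TPM in SKOV3. It was higher in Hey PGCCs than in parental cells by 1.23, and its difference between SKOV3 daughter and parental cells was -3.15, the same direction as TUBA1B there.

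TUBE1, the ε-tubulin of centrioles, had 41.2, 31.5 and 24.6 TPM in Hey and 26.0, 11.9 and 18.0 TPM in SKOV3. Its difference between SKOV3 PGCCs and parental cells was -1.06, and -0.45 with the trend subtracted. TUBD1, the δ-tubulin, had 4.18 to 5.99 TPM in Hey and 16.4 to 25.7 TPM in SKOV3. TUBG2, the second γ-tubulin, had 5.62 to 9.56 TPM in Hey and 7.08 to 13.9 TPM in SKOV3, below TUBG1 in every library.

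Some minor tubulin symbols had their highest level in the SKOV3 daughter library. TUBA8 had 9.06 TPM there and at most 0.423 TPM in the other 5 libraries. It passed the mean TPM of 1 and the 5 TPM for naming only through this library, so its selection favoured a high value there. The pseudogene TUBBP5 had 22.5 TPM there, against 5.25 and 5.95 TPM in the other SKOV3 libraries. TUBB2B had 21.4 TPM in the same library, and the part of these genes in its value was not tested. TUBB4A had 3.06, 7.29 and 8.66 TPM in SKOV3 and at most 0.278 TPM in Hey, so its SKOV3 PGCC and daughter libraries were close to each other. Its difference between SKOV3 daughter and parental cells was 1.25, and 0.94 with the trend subtracted.

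Genes that fold, anchor, modify or bind tubulin were then followed in 7 further lists with 90 tested genes. In PGCCs against parental cells 0 genes of these lists were past 2-fold in the same direction in both lines, where 0.834% of all genes were in each direction, a share at which 90 genes can hold none. Within a line the counts below stand beside the shares of all genes given above, 7.67% higher and 5.22% lower in Hey PGCCs and 9.94% and 4.96% in SKOV3 PGCCs.

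**Figure D5:**
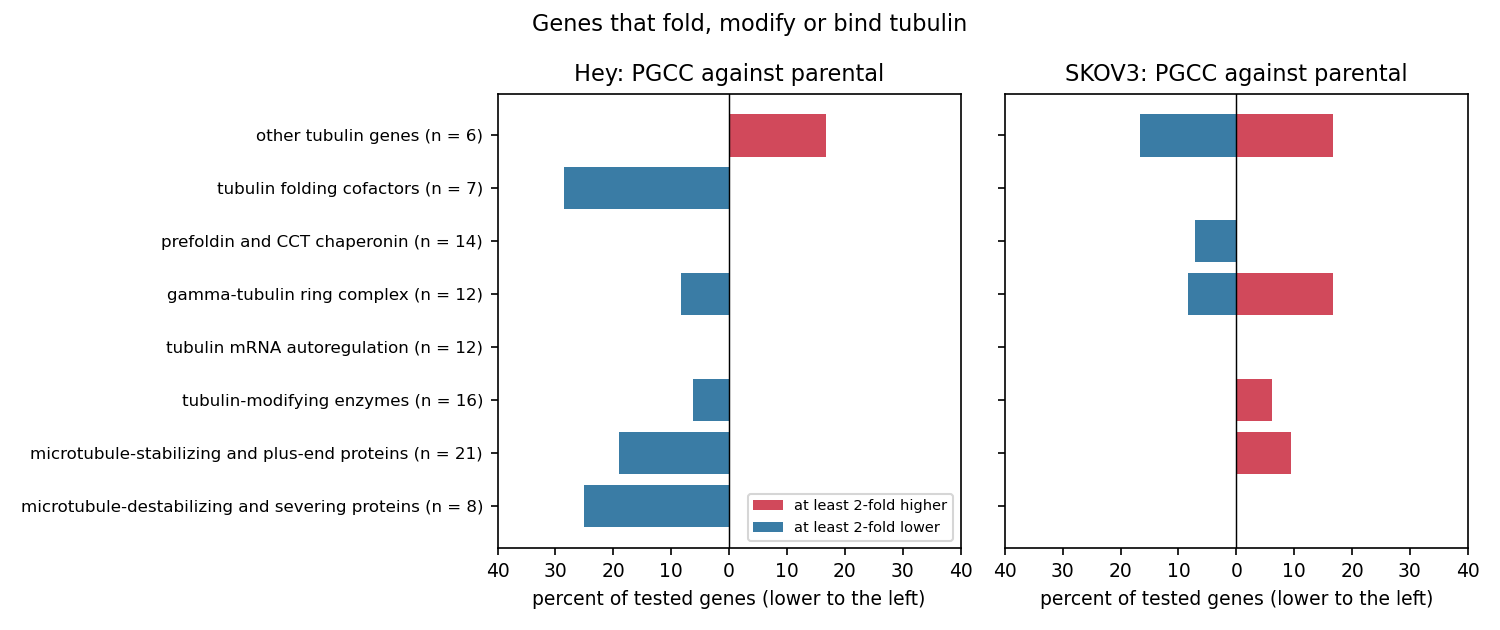
Percent of the tested genes of each list that were at least 2-fold higher (right of 0) or lower (left of 0) in PGCCs against parental cells, for Hey (left) and SKOV3 (right), with the number tested in parentheses. In Hey the bars of the lists other than tubulin genes point to lower values, 4 of 21 in the stabilizing and plus-end list being the most genes, and in SKOV3 the 12 autoregulation genes show none in either direction.

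The tubulin folding cofactors assemble the dimer after the chaperonin has folded each chain. Of 7 tested, 2 were lower and 0 higher in Hey PGCCs, and 0 passed in SKOV3. TBCD had 30.5, 6.76 and 32.3 TPM in Hey parental cells, PGCCs and daughter cells, and 36.6, 69.3 and 46.4 TPM in SKOV3. TBCE, at -1.04, was -0.99 with the trend subtracted. Of the 14 genes of prefoldin and the CCT chaperonin, which fold the chains, 0 passed in Hey and 1, VBP1, was lower in SKOV3 at -1.02, or -0.33 with the trend subtracted.

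Of 12 genes of the feedback on tubulin mRNA, TTC5 and the CCR4-NOT subunits among them, 0 were past 2-fold in PGCCs of either line, a count that so short a list can reach at the shares of all genes. TTC5 had 6.44, 5.06 and 6.36 TPM in Hey and 3.17, 2.07 and 3.30 TPM in SKOV3. The median difference of these 12 was -0.31 in Hey and -0.45 in SKOV3, beside 0 and 0.017 over all genes, and it was -0.24 and -0.098 with the trend subtracted.

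Of the 12 tested genes of the γ-tubulin ring complex and its anchors, 1 was lower in Hey PGCCs, CDK5RAP2. The median difference was -0.57 in Hey and 0.062 in SKOV3, beside 0 and 0.017 over all genes. It was -0.65 and -0.086 with the trend subtracted. In SKOV3 the small subunits MZT2A and MZT2B were higher and MZT1 lower, and 0 passed with the trend subtracted. AKAP9, which anchors the complex at the centrosome and the Golgi, was higher in daughter than in parental cells of both lines. It had 7.90, 8.78 and 27.1 TPM in Hey and 7.96, 6.55 and 22.2 TPM in SKOV3, differences of 1.66 and 1.37 between daughter and parental cells. The differences between PGCCs and daughter cells were -1.53 and -1.62.

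Of 16 tested enzymes that modify tubulin, TTLL12 had a difference between PGCCs and parental cells of -1.53 in Hey and of 1.26 in SKOV3, or 0.39 with the trend subtracted. VASH1, a carboxypeptidase that removes the last residue of α-tubulin, was higher in daughter cells of both lines by 1.51 and 1.09, the latter 0.57 with the trend subtracted. Its level was low, at most 5.52 TPM.

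The microtubule-stabilizing and plus-end list had 21 tested genes. In Hey PGCCs 4 were lower and 0 higher. They were PRC1 (159 to 37.0 TPM), TPX2 (210 to 55.6 TPM), NUSAP1 (120 to 36.4 TPM) and CKAP5 (84.5 to 38.9 TPM), whose products work on the mitotic spindle. The same 4 genes had SKOV3 differences of -0.86, -0.58, -0.90 and -0.73, none past 2-fold. In SKOV3 MAP1S and CLIP2 were higher, and 0 genes passed with the trend subtracted. MAPRE3, an end-binding protein, was higher in daughter cells of both lines by 1.16 and 1.04, or by 0.85 in SKOV3 with the trend subtracted.

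In SKOV3 daughter cells 5 of the 21 genes of this list were higher than in parental cells, where 15.1% of all genes were. With the trend subtracted 3 were higher and 1 lower. The lower one was MAP1B (62.3 to 33.1 TPM), at -0.89 as deposited and -1.21 with the trend subtracted. Among the 5 higher genes were MAP2 (5.14 to 32.8 TPM), MAPT (4.74 to 23.0 TPM) and CLIP2 (3.24 to 17.0 TPM). They stayed past 2-fold with the trend subtracted, at 2.22, 1.59 and 1.56. In Hey the corresponding differences were -0.39, 0.70 and -0.91. MAP2 and MAPT were thus high in the same library as TUBB2B, while TUBB2A and TUBB3 differed there from parental cells by only 0.15 and 0.30. The summed TPM of the 5 neuron markers was 3.61, 2.78 and 8.35 in SKOV3 parental cells, PGCCs and daughter cells, most of it SYT1 (3.56, 2.66 and 7.93 TPM). In Hey that sum was 14.2 to 24.9 TPM. The part of these markers, and of the fibroblast markers given above, in the values of this library was not tested.

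Of 8 tested genes whose products take microtubules apart, 2 were lower in Hey PGCCs and 0 passed in SKOV3. STMN1, which binds free dimers, had 556, 246 and 584 TPM in Hey and 1187, 646 and 1108 TPM in SKOV3, with differences of -1.17 and -0.88 between PGCCs and parental cells. FIGNL1, a relative of the severing enzymes, was lower in PGCCs than daughter cells in each line, at -1.20 in Hey and -1.18 in SKOV3, the latter -0.63 with the trend subtracted. AKAP9, VASH1, MAPRE3 and FIGNL1 follow the rule for named genes, and the other genes named from these 7 lists were chosen after their values were seen.

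The genes whose log2(TPM + 1) was most like that of a member over the 6 libraries were sought among 8382 genes of mean TPM 5 or more. These correlations rest on 6 points that share 2 cell lines, so a difference between the lines alone gives a high value, and 70 to 1107 of the 8382 genes reached r = 0.9 with a given member. TUBA4A was the nearest gene to both TUBA1B (r = 0.985) and TUBA1C (r = 0.987), followed by PMEPA1 and SNF8 for TUBA1B and by THSD1 and TMEM208 for TUBA1C. For TUBA1A they were ZNF416 (r = 0.996), IFI30 and ZNF436. The nearest to TUBB were NPTN (r = 0.997), SYNC and IDNK.

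TUBB2A was closest to AKR1C1 (r = 0.995), DNAJB2 and SRA1, and TUBB3 to IFI27L1 (r = 0.998), AKR1C3 and ZNF213-AS1. AKR1C1 and AKR1C3 encode aldo-keto reductases that act on steroids. TUBB2B was closest to AGA (r = 0.997), RBM28 and SYTL3, and TUBB4B to DPM2 (r = 0.991), PLOD1 and COX8A. For TUBB6 they were INPP5K (r = 0.990), NSMF and MAN1B1, and for TUBG1 KIAA0930 (r = 0.997), SLC25A29 and BSCL2.

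Between the members themselves the highest correlation was that of TUBA1A and TUBB2A (r = 0.961), followed by TUBA1B and TUBA1C (r = 0.947), and the lowest that of TUBB and TUBB6 (r = -0.81, n = 6 libraries). TUBA1A and TUBB2A lie on different chromosomes, and their coding sequences are 52.1% identical, against 96.8% for TUBA1B and TUBA1C.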

How the data were processed

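Total RNA was sequenced as 6 libraries, 3 states of each of 2 cell lines. The submitters' processing notes name fastp, Salmon 0.14.1 and hg38, and the authors deposited TPM values per gene symbol; the annotation release and bias options are not given in the sources used here. No counts come with the TPM values, so the depth per gene is unknown. TPM was used as deposited, as differences of log2(TPM + 1) within a line, called at 2-fold, with 14988 genes of mean TPM at least 1 as background. No count test was used. A trend over GC content and transcript length (GENCODE release 44) was fitted to each difference by lowess (fraction 0.3, 2 passes, 13468 genes) and subtracted. limma 3.58.1 in R 4.3.3 was fitted to log2(TPM + 1) of all 6 libraries with state and cell line, an intensity trend and Benjamini-Hochberg adjustment over 14988 genes. The other steps used Python 3.11.15, pandas 2.3.3 and statsmodels 0.14.6.

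The members, the lists and the alternatives were chosen with earlier results of these data known. Genes named were all members, other tubulin genes reaching 5 TPM, up to 4 genes of each list past 2-fold the same way in both lines, and the 3 genes most correlated with each member among those of mean TPM 5 or more and log2 range 1 or more. Alternatives were a pseudocount of 0.1, a mean TPM of at least 5, median ratio scaling, quantile normalization, removal of mitochondrial genes, thresholds of 1.5-fold or 3-fold, other class totals and other limma settings. Scripts were tested on simulated data. Sequences are from GENCODE and RefSeq (GRCh38.p14).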

Additional observations from a re-analysis of the deposited data

Results flagged for a closer look

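In 6 instances a member moved in opposite directions in Hey and SKOV3 with at least 1 line past 2-fold. With 1 library per condition these differences between the lines were not tested. TUBA1B differed between daughter and parental cells by 0.60 in Hey and -1.18 in SKOV3, which puts Hey above SKOV3 by 1.78 (log2), and between PGCCs and daughter cells by -0.44 and 1.22, a gap of -1.66. TUBB2B differed between daughter and parental cells by -0.21 and 3.04, a gap of -3.24, and between PGCCs and daughter cells by 0.82 and -1.88, a gap of 2.70. TUBB4B differed between PGCCs and daughter cells by -0.79 and 1.40, a gap of -2.19, and TUBB6 by -0.50 and 1.15, a gap of -1.64. With the GC and length trend subtracted, TUBB4B was at -0.62 and 0.96 and TUBB6 at -0.33 and 0.83. Neither gene was then past 2-fold in either line. All 6 involve a daughter library, each labelled as 1 clone, and the 2 comparisons of a gene share that library.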

How the results depend on the processing

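Of 360 differences of single members under the alternatives, 322 kept their sign and their side of 2-fold. These include 60 under the mean TPM of at least 5, a filter that all 10 members pass and that leaves their values unchanged. Of the others, 10 called differences dropped under 2-fold, 9 uncalled ones passed it, 19 uncalled ones changed sign, and no called one changed sign. With the GC and length trend subtracted, members higher fell to 0 in SKOV3 PGCCs against parental cells, to 1 in SKOV3 PGCCs against daughter cells and to 0 in both lines for either PGCC comparison, and members lower in SKOV3 daughter cells became 2. Median ratio scaling or leaving out mitochondrial genes left 1 member (TUBB2A) higher in PGCCs than parental cells of both lines, since TUBB3 in SKOV3 was then at 0.95 or 0.99. Quantile normalization left 0 members lower in SKOV3 daughter cells (TUBA1B at -0.83), and a pseudocount of 0.1 gave 4 higher in Hey PGCCs than daughter cells. At 1.5-fold, members higher in PGCCs against parental cells were 7 in SKOV3 and 4 in both lines; members higher in PGCCs against daughter cells were 5 in Hey and 2 in both lines, with 1 lower in Hey; and daughter cells had 4 higher in Hey and 2 lower in SKOV3. At 3-fold, SKOV3 had 0 higher in either PGCC comparison and 0 lower in daughter cells, and 0 were shared by both lines. No share of all genes was computed at 1.5-fold, at 3-fold, under the scalings, without mitochondrial genes or with the pseudocount of 0.1. Those counts therefore have no background beside them. Quantile normalization moved shares of β-tubulin TPM to 0.0896% for TUBB2B in Hey parental and 0.0393% in Hey daughter cells, and in SKOV3 daughter cells to 0.733% for TUBB2A, 0.703% for TUBB2B and 1.91% for TUBB3. The median of all genes shifted by -0.16 and 0.12 under median ratio scaling and by -0.18 and 0.12 under quantile normalization for SKOV3 daughter against parental cells and PGCCs against daughter cells, and without mitochondrial genes by 0.11 for Hey PGCCs against parental cells and -0.11 for SKOV3 PGCCs against daughter cells. The limma fit pairs the states by cell line, and its count of members with an adjusted p under 0.05 stayed 0 under every setting, also with state alone and, as chosen after seeing the data, with each library left out in turn (lowest and highest count 0 and 0, 1 residual degree of freedom, a lone sample being assumed to vary like the others). For PGCCs against parental cells, the 3 members with an unadjusted limma p under 0.05 became 0 without Hey parental cells, 1 without Hey PGCCs and 2 without SKOV3 parental cells. For PGCCs against daughter cells, 2 became 0 without Hey PGCCs and 1 without Hey parental, Hey daughter or SKOV3 parental cells, and for daughter against parental cells 0 became 1 without Hey daughter cells. A difference within a line rests on both of its libraries, so neither can be left out there.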
